A study of Mus musculus with 44 samples.

Results

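Lmo4, C1qtnf4, Ppm1f and Nckap1l are 4 of the 21887 mouse protein-coding genes placed in these data. They were grouped because H3K27ac, an acetylation of histone H3 found at active promoters and enhancers, was thought to be scarce at them in the paraventricular thalamic nucleus (PVT) and plentiful in 3 other brain regions. The genes were therefore chosen by measured H3K27ac levels in the 4 regions, and those levels are given as a description with no test; the choice had no stated threshold. Lmo4 and Ppm1f met the description in these levels, which chose them and so are no support for it. The levels went against it for C1qtnf4 and Nckap1l. In PVT the peak length of C1qtnf4 was close to the mean of the other regions, and the lowest region of Nckap1l was cortex.

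The mice were adults of genotype Polg(D181A), a mutated mitochondrial DNA polymerase, or wild type (WT). As background not given in the labels, the line expresses the mutant enzyme from a Camk2a promoter, which is active mainly in forebrain neurons. H3K27ac was read by chromatin immunoprecipitation in PVT, in cortex (COR) and in the striatal regions caudate putamen (CP) and accumbens (NAC), with 2 Polg and 2 WT libraries per region. Open chromatin was read by ATAC-seq, which marks DNA accessible to a transposase, in 2 Polg and 2 WT libraries of PVT. Nuclei for both assays were sorted on NeuN, a neuronal protein. RNA came from PVT in 5 groups of 4 libraries. These were Polg euthymic COX-positive, Polg euthymic COX-negative, Polg depressive COX-positive, Polg depressive COX-negative and WT euthymic COX-positive. COX is cytochrome c oxidase, a mitochondrial respiratory enzyme that the labels give as a stain, and euthymic or depressive is the labelled behavioural state. The strain is C57BL/6 throughout, except that each ATAC library carries a number of its own after the slash (9 and 10 for Polg, 7 and 8 for WT). The labels do not say whether libraries came from separate animals or from pools, so every p-value given here measures the spread between libraries, which may be technical. WT replicate 2 of CP, with 80.84% of peaks at 0 counts, and WT replicate 2 of NAC, with 69.64%, stood apart from their WT partners at 28.54% and 19.87%.

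The genes have unrelated roles. Lmo4 encodes a LIM-only protein, an adaptor with no DNA-binding domain that joins transcription complexes through the cofactor Ldb1, and it is known in cortex and striatum. Ppm1f encodes a serine/threonine phosphatase that removes activating phosphates from calmodulin-dependent kinases and p21-activated kinases. C1qtnf4 encodes a secreted protein with C1q-like domains, made in the brain. Nckap1l, also called Hem1, encodes the blood-lineage form of a subunit of the WAVE complex, which drives branched actin, and its paralog Nckap1 is the form used in most other cells.

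Lmo4 lies at chr3:144188530-144205255 (mm10, minus strand) and has no other gene within 5 kb. Its nearest protein-coding neighbour, Hs2st1, is 224.4 kb away. Ppm1f lies at chr16:16896469-16927375 on the plus strand, 3.5 kb from Top3b. C1qtnf4 lies at chr2:90882788-90890526, 4.1 kb from Ndufs3 and 15978 bp from Mtch2. Nckap1l lies at chr15:103453783-103502860, and Pde1b, which encodes a calmodulin-dependent phosphodiesterase, begins 0.2 kb beyond it. Each gene was read over its span plus 5 kb on either side, called its window, so the windows of the last 3 genes also hold sequence of neighbours.

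RefSeq promoter sequences (GRCm38.p6, the same assembly as mm10; 250 bases before to 50 after the start) were matched for Lmo4 and Ppm1f and for the neighbour Pde1b. They are shown because the peaks at these starts separate the genes. CpG dinucleotides are in capitals.
Lmo4 promoter, chr3:144205206-144205505, minus strand: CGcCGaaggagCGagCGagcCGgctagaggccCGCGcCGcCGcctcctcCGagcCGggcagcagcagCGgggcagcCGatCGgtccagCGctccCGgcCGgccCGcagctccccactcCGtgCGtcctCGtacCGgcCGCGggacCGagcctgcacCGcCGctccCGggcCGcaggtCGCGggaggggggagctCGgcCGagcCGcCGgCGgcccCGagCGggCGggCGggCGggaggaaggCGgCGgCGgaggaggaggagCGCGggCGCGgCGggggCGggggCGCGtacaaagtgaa
Ppm1f promoter, chr16:16896219-16896518, plus strand: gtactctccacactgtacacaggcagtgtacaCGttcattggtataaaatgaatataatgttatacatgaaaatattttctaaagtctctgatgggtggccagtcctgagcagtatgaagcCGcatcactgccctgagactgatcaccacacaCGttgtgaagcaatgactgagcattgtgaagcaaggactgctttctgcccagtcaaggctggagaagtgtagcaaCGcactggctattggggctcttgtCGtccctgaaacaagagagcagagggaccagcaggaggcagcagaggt
Pde1b promoter, chr15:103502784-103503083, plus strand: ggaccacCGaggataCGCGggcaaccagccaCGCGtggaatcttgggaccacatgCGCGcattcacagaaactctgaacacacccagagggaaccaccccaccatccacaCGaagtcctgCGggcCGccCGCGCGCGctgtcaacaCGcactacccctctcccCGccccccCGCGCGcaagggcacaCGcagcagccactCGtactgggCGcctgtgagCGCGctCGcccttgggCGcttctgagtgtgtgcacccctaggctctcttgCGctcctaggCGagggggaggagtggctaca
The Lmo4 sequence held 52 CpG and was 81.3% G and C, and 99.4% of the 32851 RefSeq promoters held fewer CpG. The Ppm1f sequence held 5 CpG at 48.3% G and C, near the median of 7 CpG and 52.7% over all promoters. The Pde1b sequence, which reaches back over the high-coordinate end of Nckap1l, held 28 CpG.

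Motif letters were counted on both strands, and neighbouring matches may share bases. The Lmo4 promoter held 4 copies of the GC box GGGCGG, each containing a CpG, a motif found in 35.7% of promoters. It also held 1 copy of GAGGAA, the core of the PU.1 motif, found in 28.3%. The Ppm1f promoter held 1 TATAAA, found in 13.6%, and no GC box. The cyclic AMP response core TGACGT, the AP-1 motif TGANTCA and the E boxes CAGCTG and CATATG were in 7.5%, 7.8%, 16.3% and 3.9% of promoters and in none of the 3 printed. The Lmo4 promoter overlapped a called H3K27ac peak in COR, CP and NAC and an ATAC peak of PVT, but no H3K27ac peak of PVT. The nearest PVT peak, inside the gene, reached up to position 144205053 of chromosome 3 and stopped short of the promoter window. The Ppm1f promoter overlapped H3K27ac peaks in PVT and NAC, and the Pde1b promoter overlapped a peak in all 4 regions. Of the other RefSeq starts of Lmo4, both overlapped peaks in CP and NAC and none in PVT or COR.

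Each region has 1 peak set called for its 4 libraries together, so a length in kb is 1 value per region with no replicate error. Reads outside called peaks are not in the tables, so no peak does not mean no acetylation. Lmo4 had 1.7 kb of H3K27ac peaks in PVT, against 8.96 kb in COR, 16.75 kb in CP and 18.24 kb in NAC. Its PVT length was 0.116 of the mean of the other 3 regions. Among the 3776 genes with a mean of at least 5 kb in those regions, a size chosen after the values were seen, the median of this ratio was 1.007 and 4.45% of genes lay below Lmo4.

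Ppm1f had 4.32 kb in PVT, against 19.73 kb in COR, 11.49 kb in CP and 22.14 kb in NAC, a ratio of 0.243 with 10.09% of genes below it. PVT was the lowest region for 1018 of the 3776 genes and held under 50% of the next lowest region for 11.47%. Lmo4 and Ppm1f belong to both sets.

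C1qtnf4 had 8.53 kb in PVT, against 11.54 kb in COR, 5.42 kb in CP and 13.24 kb in NAC, so CP was its lowest region. Its ratio of 0.847 had 42.08% of genes below it. Nckap1l had 14.65 kb in PVT, against 1.92 kb in COR, 24.88 kb in CP and 22.78 kb in NAC. Its ratio was 0.886, and its PVT length was 7.642 times its COR length.

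**Figure D1:**
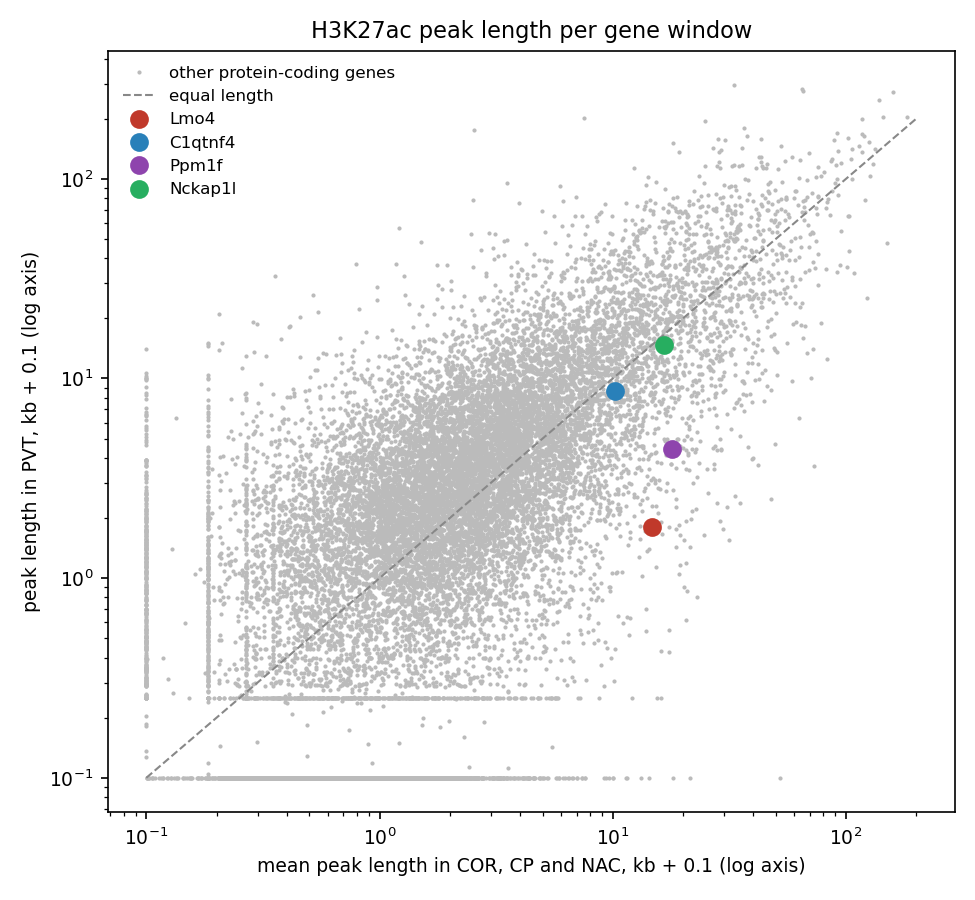
H3K27ac peak length per gene window in PVT (vertical, kb + 0.1, log axis) against the mean of COR, CP and NAC (horizontal, kb + 0.1, log axis), with 1 grey point per protein-coding gene and a dashed line at equal length. Lmo4 (1.7 kb in PVT) and Ppm1f (4.32 kb) lie well below the line, while C1qtnf4 (8.53 kb) and Nckap1l (14.65 kb) lie close to it.

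In read counts, which belong to the levels that chose the genes, PVT was the lowest region for Lmo4 and Ppm1f. The order of the other regions differed from that by length. Counts were summed over the peaks of a window and divided by the TMM-scaled library size (trimmed mean of M values) to give CPM (counts in the window scaled to a common total of counts over all peaks of that table). Each table was scaled alone, so CPM between regions also move with how much was called as peak in each. Called peaks covered 135.7 Mb in PVT, 141.7 Mb in COR, 70.6 Mb in CP and 119.6 Mb in NAC.

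Lmo4 averaged 10.8 ± 3.32 CPM in PVT (SD, n = 4 libraries of both genotypes, as for the values that follow), against 74.7 ± 17.1 in COR, 317 ± 87.1 in CP and 245 ± 37.7 in NAC. Ppm1f averaged 19.3 ± 6.17 CPM in PVT, against 172 ± 23.1 in COR, 212 ± 37.9 in CP and 201 ± 46.2 in NAC. For both genes every PVT library lay below every library of the other regions; among the others, Lmo4 in CP and NAC overlapped, and the 3 regions overlapped for Ppm1f.

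C1qtnf4 averaged 235 ± 33.9 CPM in PVT, against 115 ± 38.5 in COR, 173 ± 6.86 in CP and 215 ± 39.6 in NAC. PVT thus had the highest mean, and its libraries overlapped those of NAC. The PVT value for C1qtnf4 includes 138 CPM of a 15.3 kb peak that runs in from the Mtch2 side. Within the gene span alone, the means were 97.3 ± 24.95 CPM in PVT, 65.7 ± 31.5 in COR, 173 ± 6.86 in CP and 202 ± 36.8 in NAC. Both NAC values include all 81.4 CPM of an 8.09 kb peak from the same side that reaches 0.3 kb into the gene. Nckap1l averaged 111 ± 16.1 CPM in PVT, against 22.8 ± 9.05 in COR, 493 ± 224 in CP and 243 ± 57.1 in NAC. Its PVT libraries all lay above those of COR and below those of CP and NAC.

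**Figure D2:**
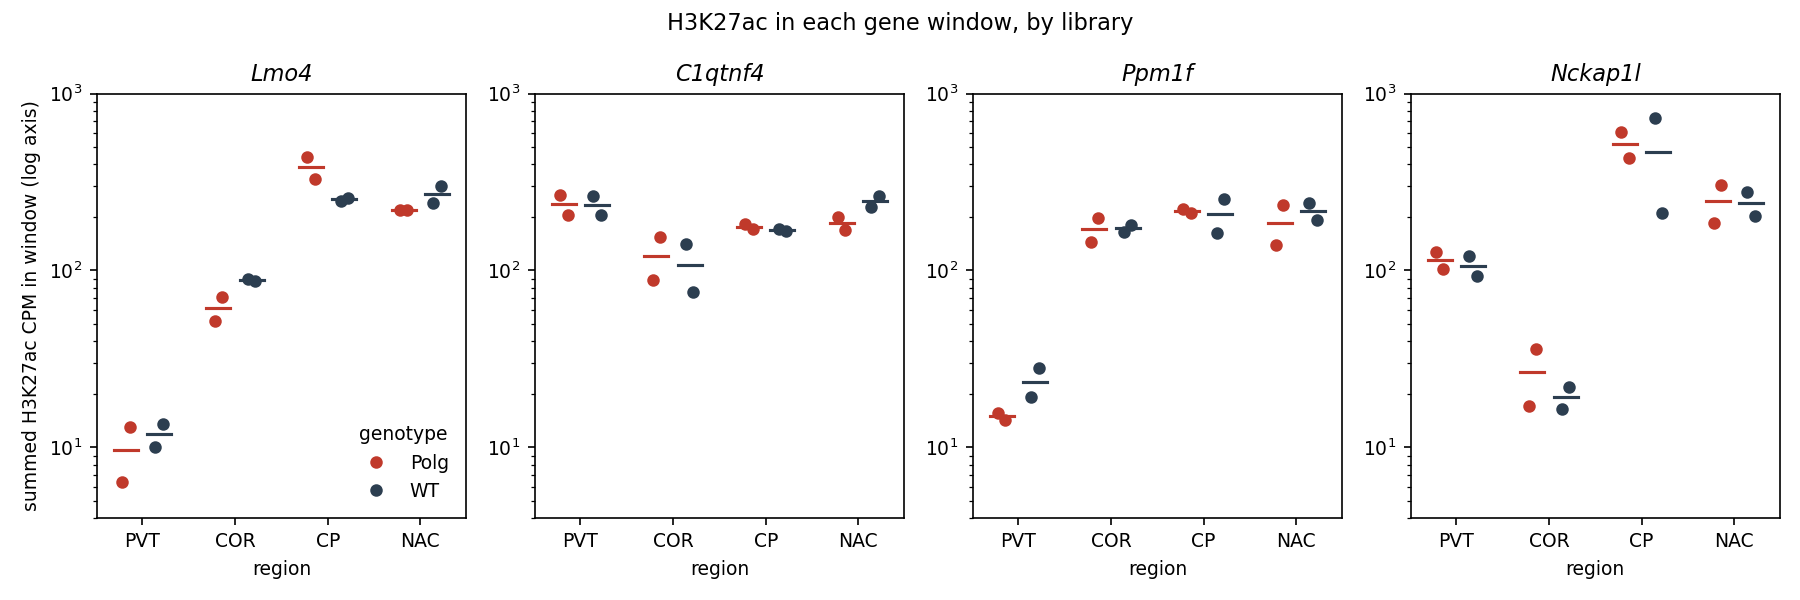
Summed H3K27ac CPM in each gene window (vertical, log axis) by region, with 1 point per library, Polg in red and WT in dark blue, and a bar at the mean of 2 libraries. Lmo4 and Ppm1f sit lowest in PVT (means 10.8 and 19.3 CPM), whereas Nckap1l sits lowest in COR (22.8 CPM) and C1qtnf4 is of similar level in PVT and NAC.

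The position of the peaks differed as well as their length. In PVT the Lmo4 window had 2 peaks. One of 1.09 kb lay inside the gene (7.07 CPM, 73.9th percentile of PVT peaks) and one of 0.61 kb lay beside the start (3.71 CPM, 56.9th percentile). In CP a single peak of 9.95 kb with 210 CPM crossed the start. At the start, COR had a 3.13 kb peak with 32.3 CPM and NAC a 4.67 kb peak with 87.1 CPM. Every base of the PVT peaks of Lmo4 lay within a peak of another region, with 0.61 kb shared by all 4. Another 4.75 kb lay in peaks of COR, CP and NAC but not of PVT, and 7.72 kb in peaks of CP and NAC only. Beyond the gene, PVT had 0.39 kb of peaks within 100 kb on the low-coordinate side and 0.0 kb on the other side, against 9.31 and 4.04 kb in COR, 2.37 and 1.67 kb in CP and 3.17 and 4.67 kb in NAC.

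Ppm1f had 4 peaks in PVT. The strongest, 2.37 kb with 8.49 CPM, crossed the start, and the others held 4.19, 1.18 and 5.41 CPM. A NAC peak with 10.0 CPM (1.28 kb) also crossed the start. The nearest peaks of COR, with 8.46 CPM (0.49 kb), and of CP, with 6.00 CPM (0.31 kb), began 0.1 kb inside the gene. The CP value rests on the Polg libraries, with 19.01 and 4.97 CPM in Polg and 0.0 in both WT libraries. Before the start CP had a further peak with 30.4 CPM. Within the gene COR had a 7.38 kb peak with 44.1 CPM and NAC had peaks of 31.1 and 27.4 CPM, each above every PVT peak of the window. At the other end of the gene COR had an 8.58 kb peak with 79.9 CPM, CP a 5.3 kb peak with 121 CPM and NAC a 9.19 kb peak with 95.1 CPM, while PVT had a 0.91 kb peak with 5.41 CPM. In all, 7.03 kb of the Ppm1f window lay in peaks of COR, CP and NAC but not PVT, 1.4 kb in peaks of all 4 regions, and 1.28 kb in peaks of PVT only.

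Nckap1l carried no peak in any region from the window's low-coordinate edge to 13.1 kb inside the gene. In PVT its peaks began 28.0 kb inside, and the strongest, 7.45 kb with 56.1 CPM, crossed the start of Pde1b. NAC had a 17.02 kb peak with 155 CPM over the same junction, and CP a 4.59 kb peak with 160 CPM. COR had a 0.95 kb peak there with 15.4 CPM. Peaks of PVT, CP and NAC shared 9.24 kb of the Nckap1l window that held no COR peak, and 29.77 kb of the window held no peak of any region. In the C1qtnf4 window, 3.91 kb lay in peaks of all 4 regions, and 0.0 kb lay in peaks of PVT alone.

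**Figure D3:**
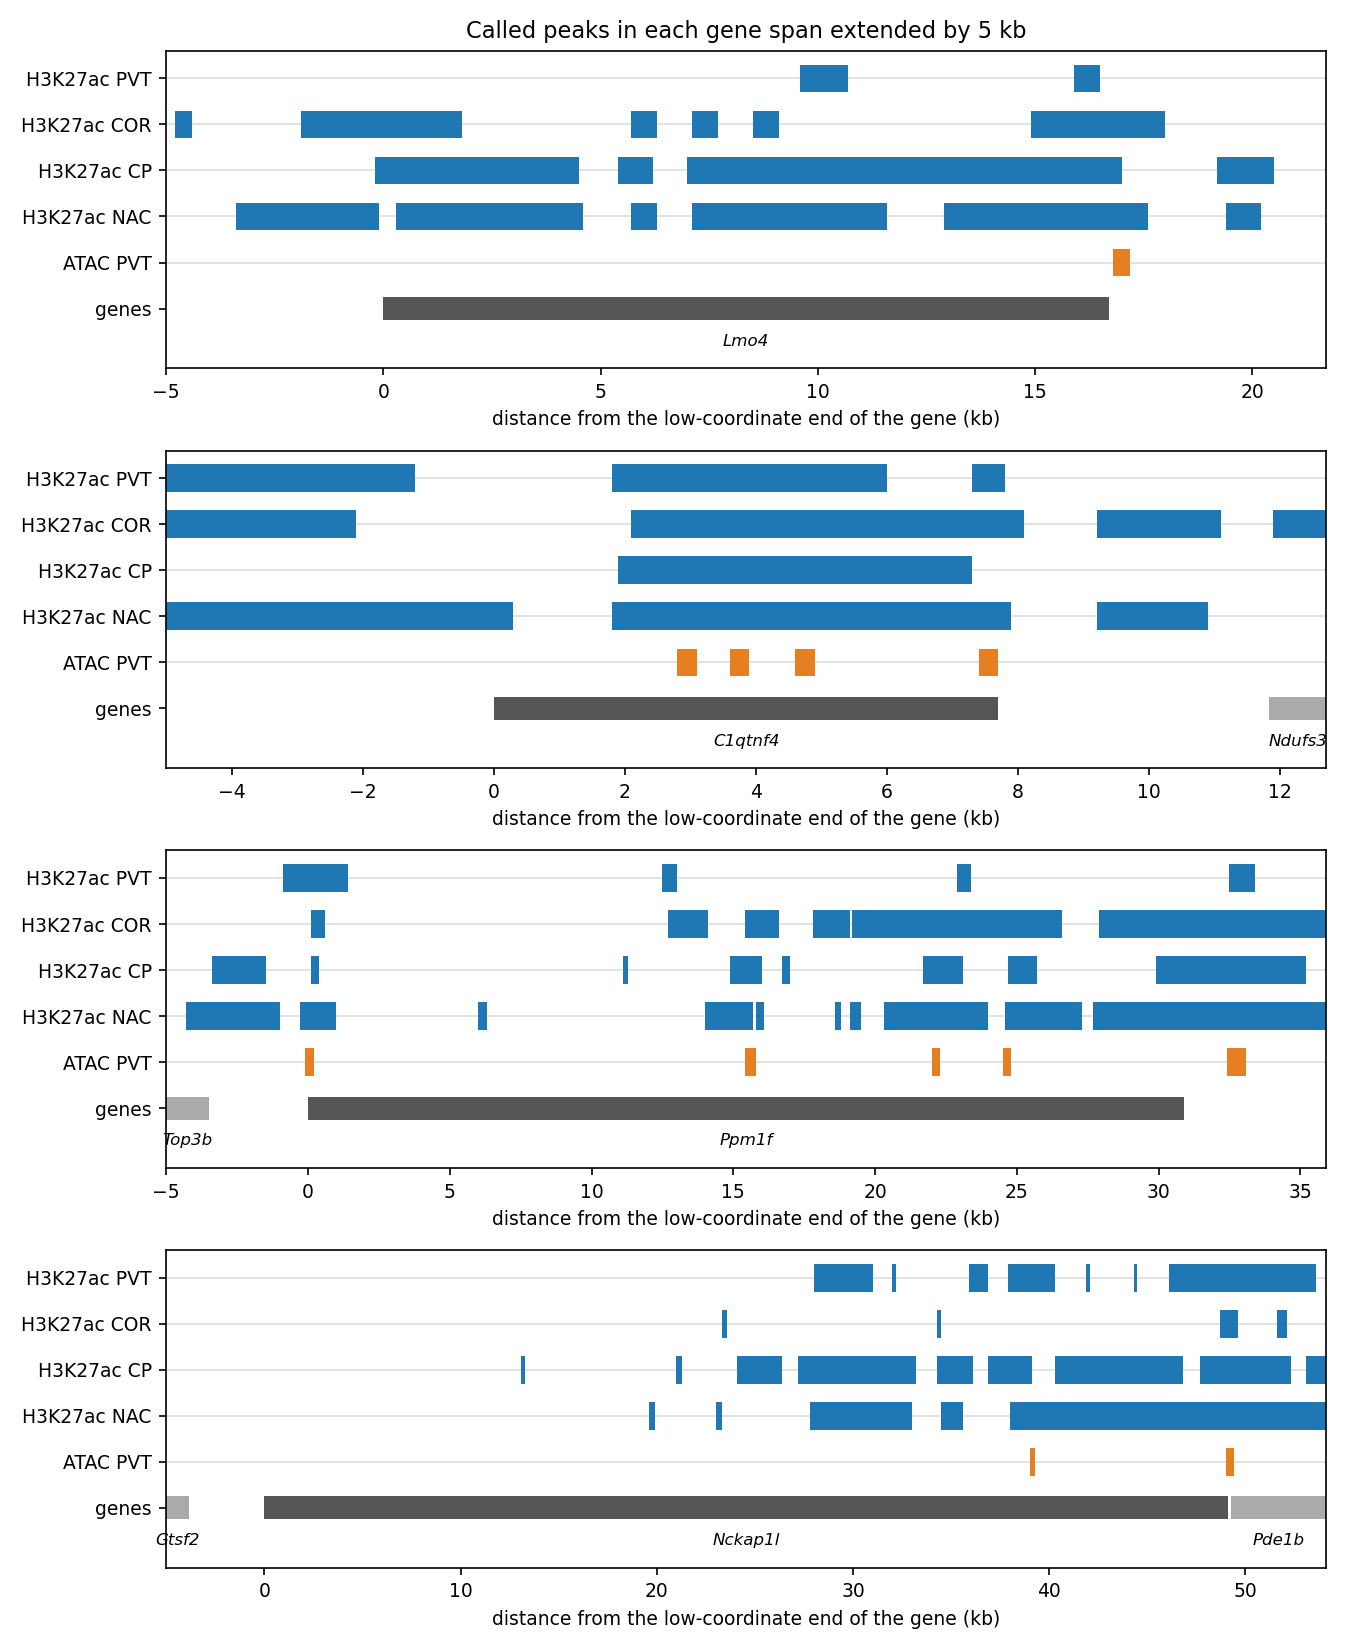
Called peaks in the 4 gene windows, by distance from the low-coordinate end of each gene (kb), with H3K27ac in blue for PVT, COR, CP and NAC, PVT ATAC peaks in orange, the gene in dark grey and neighbouring protein-coding genes in light grey. Lmo4 has 2 PVT peaks (1.7 kb) where CP and NAC cover most of the gene, and all PVT peaks of Nckap1l lie in the part towards Pde1b.

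Open chromatin was present in the windows of all 4 genes in PVT. Lmo4 had 1 ATAC peak, 0.45 kb long and overlapping the promoter printed above, with a mean of 22.2 CPM, in the 93.4th percentile of the 89792 ATAC peaks. That peak overlapped H3K27ac peaks of COR, CP and NAC and none of PVT. Ppm1f had 5 ATAC peaks, all overlapping H3K27ac peaks of COR, CP and NAC, but 2 overlapping those of PVT. Over all ATAC peaks, 42.6% overlapped a PVT H3K27ac peak, and 1.72% (1541) overlapped one in COR, CP and NAC but not in PVT. The strongest Ppm1f ATAC peak, at the start, had 28.8 CPM, and the 3 outside PVT H3K27ac peaks had 9.36, 2.97 and 6.22 CPM. C1qtnf4 had 4 ATAC peaks and Nckap1l had 2, all of them overlapping PVT H3K27ac peaks. The stronger Nckap1l peak, with 13.7 CPM, overlapped the Pde1b promoter printed above, and the other, with 11.1 CPM, lay inside the gene.

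Between genotypes, none of the 4 genes passed a test of PVT accessibility. Lmo4 had 27.4 and 23.6 ATAC CPM in Polg, against 21.1 and 16.5 in WT. Ppm1f had 70.3 and 66.9 CPM in Polg, against 49.8 and 51.4 in WT. C1qtnf4 had 48.0 and 50.8 CPM in Polg, against 36.9 and 43.1 in WT. In these 3 genes both Polg libraries lay above both WT libraries. Nckap1l had 21.3 and 20.3 CPM in Polg, against 34.9 and 22.9 in WT, with both Polg libraries below. Groups thus did not overlap at 4 of 4 genes, where 31.9% of the 16576 genes tested had groups that did not overlap in either direction. None of these differences passed. The log2 changes of Polg over WT were 0.42 (SE 0.34) for Lmo4, 0.44 (SE 0.23) for Ppm1f, 0.32 (SE 0.25) for C1qtnf4 and -0.50 (SE 0.33) for Nckap1l. By edgeR's quasi-likelihood test with Benjamini-Hochberg adjustment over all genes, the adjusted p was 0.9999 for each. The threshold of 0.05 was passed by 0.0121% of genes, which is 2: Camk2a, a kinase gene, and Gm40363. DESeq2's Wald test called 1.

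**Figure D4:**
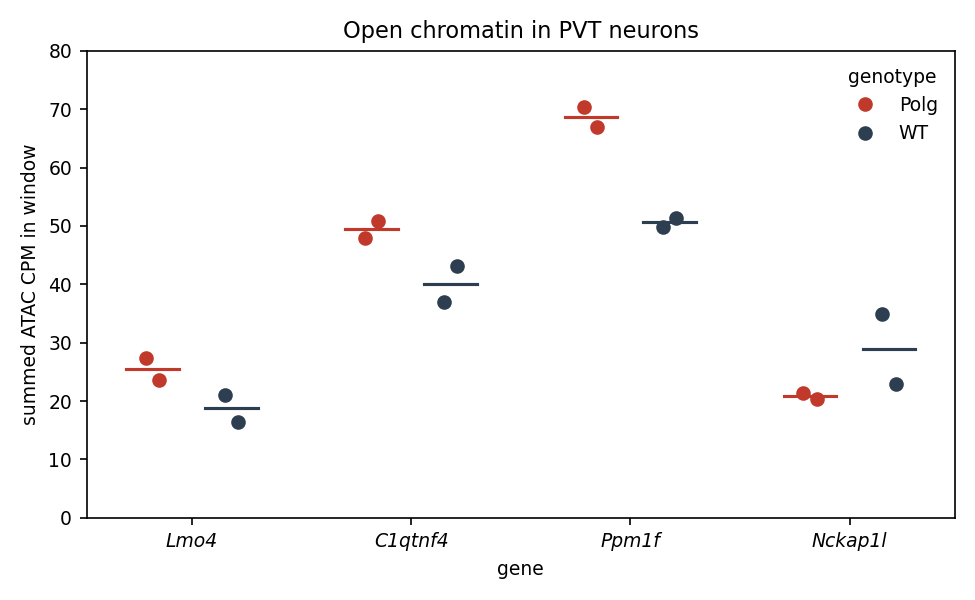
Summed PVT ATAC CPM in each gene window (vertical, from 0), with 1 point per library, Polg in red to the left of WT in dark blue, and a bar at the mean of 2 libraries. Both Polg points lie above both WT points for Lmo4, C1qtnf4 and Ppm1f and below them for Nckap1l, and none of these differences passed the test.

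H3K27ac at the 4 genes likewise did not pass a difference between genotypes in any region. By edgeR's quasi-likelihood test 0.0% of the genes tested passed in PVT, and the same share, 0.0%, in COR, CP and NAC. At an unadjusted p under 0.05 there were 1267 genes in PVT, 878 in COR, 300 in CP and 510 in NAC, and DESeq2's Wald test called 279, 499, 326 and 836 genes in that order. None of the 4 genes was among those calls. In simulated tables of COR, CP and NAC the edgeR test recovered none of the known changes put in. A lack of calls in these regions therefore does not show a lack of difference.

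In PVT, Lmo4 had 6.36 and 13.1 CPM in Polg, against 10.1 and 13.6 in WT, and the groups overlapped (log2 change -0.29, SE 0.55). Ppm1f had 15.7 and 14.2 CPM in Polg, against 19.2 and 28.0 in WT. Both Polg libraries were lower for Ppm1f, with a log2 change of -0.66 (SE 0.40) and an adjusted p of 0.70 by the same edgeR test. C1qtnf4 had 267 and 207 CPM in Polg, against 262 and 205 in WT (log2 change 0.02, SE 0.17). Nckap1l had 127 and 102 CPM in Polg, against 120 and 92.5 in WT (log2 change 0.11, SE 0.20). Ppm1f was the 1 gene of 4 without overlap in PVT, where 41.3% of all genes had none.

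In COR, Lmo4 had 52.1 and 70.9 CPM in Polg, against 88.9 and 86.8 in WT. Both Polg libraries were lower (log2 change -0.52, SE 0.42, adjusted p 0.974 by edgeR). In CP, Lmo4 had 436 and 329 CPM in Polg, against 247 and 257 in WT. There both Polg libraries were higher (log2 change 0.60, SE 0.44, adjusted p 0.9999 by edgeR). In NAC, Lmo4 had 220 and 218 CPM in Polg, against 242 and 299 in WT (log2 change -0.30, SE 0.32). Lmo4 groups therefore did not overlap in these 3 regions, with a direction in CP opposite to that in COR and NAC; the difference between regions was not tested. The share of all genes without overlap was 39.0% in COR, 35.8% in CP and 40.6% in NAC.

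C1qtnf4 in NAC had 200 and 170 CPM in Polg, against 229 and 262 in WT, again without overlap (log2 change -0.41, SE 0.33, adjusted p 0.996 by edgeR). Its log2 changes in COR and CP were 0.17 (SE 0.46) and 0.06 (SE 0.50). Those of Ppm1f were -0.01 (SE 0.34) in COR, 0.06 (SE 0.50) in CP and -0.22 (SE 0.39) in NAC. For Nckap1l the log2 changes were 0.47 (SE 0.76) in COR, 0.15 (SE 0.58) in CP and 0.03 (SE 0.38) in NAC. The widest spread within a genotype was that of Nckap1l in CP, with 609 and 430 CPM in Polg and 723 and 211 in WT. Without the WT library of CP that stood apart, the log2 change of Nckap1l in CP was -0.47 and that of Lmo4 0.63. Without the corresponding WT library of NAC, the log2 changes there were -0.16 for Lmo4, -0.33 for C1qtnf4, -0.38 for Ppm1f and -0.20 for Nckap1l.

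RNA of the 4 genes varied widely between libraries of a group. In such bulk RNA, fewer cells of a type and less RNA per cell cannot be told apart. RNA CPM were also divided by the TMM-scaled library size, the total count multiplied by a TMM factor. That factor ran from 0.126 in a Polg euthymic COX-negative library to 3.89 in a WT library. The spread in CPM thus includes this scaling. Before scaling, Lmo4 had 27, 40, 1825 and 190 reads in the WT libraries. Their factors were 2.35, 0.711, 0.323 and 3.89 in the same order. Lmo4 ranged from 0.258 to 129 CPM over the 20 libraries with a median of 1.19, and its 4 highest libraries held 91.1% of its summed CPM. The corresponding ranges were 0.0323 to 33.2 CPM for C1qtnf4, 0.226 to 58.0 for Ppm1f and 0.468 to 156 for Nckap1l. The 4 highest libraries held 96.1% of the sum for C1qtnf4, 79.9% for Ppm1f and 81.9% for Nckap1l. Over all genes, rank correlations of counts had a median of 0.807 within groups (30 pairs) and 0.806 between groups (160 pairs). Polg itself, the gene altered in the mutants, ranged from 0.555 to 198 CPM in the 16 mutant libraries and from 0.939 to 3.66 CPM in the 4 WT libraries.

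Lmo4 had 1.13, 2.57, 0.552 and 0.631 CPM in Polg euthymic COX-positive libraries, and 57.7, 0.683, 0.988 and 0.740 in Polg euthymic COX-negative ones. It had 1.49, 8.74, 3.92 and 0.258 CPM in Polg depressive COX-positive libraries, 0.458, 53.1, 0.639 and 27.3 in Polg depressive COX-negative ones, and 0.309, 1.25, 129 and 1.77 in WT. A single library was high in the Polg euthymic COX-negative and WT groups and 2 libraries in the Polg depressive COX-negative group, and every pair of groups overlapped.

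Ppm1f had 0.336, 20.7, 58.0 and 0.544 CPM in Polg euthymic COX-positive libraries, and 0.806, 33.3, 1.23 and 0.370 in Polg euthymic COX-negative ones. It had 1.71, 0.269, 3.05 and 0.226 CPM in Polg depressive COX-positive libraries, 46.9, 7.05, 1.06 and 2.14 in Polg depressive COX-negative ones, and 37.5, 0.532, 0.846 and 3.27 in WT. Again all groups overlapped.

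C1qtnf4 was at 0.0438, 2.50, 0.0534 and 0.109 CPM in Polg euthymic COX-positive libraries, and at 0.188, 0.210, 0.120 and 0.148 in Polg euthymic COX-negative ones. It was at 0.617, 33.2, 0.0651 and 0.0323 CPM in Polg depressive COX-positive libraries, at 0.0327, 0.0475, 0.0799 and 0.209 in Polg depressive COX-negative ones, and at 0.0572, 0.0626, 0.141 and 0.0930 in WT. C1qtnf4 was thus near the limit of counting in most libraries (the lowest had 1 read), and 1 Polg depressive COX-positive library with 1852 reads stood far above the rest.

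Nckap1l had 0.468, 5.97, 0.908 and 145 CPM in Polg euthymic COX-positive libraries, and 10.4, 5.61, 1.98 and 0.740 in Polg euthymic COX-negative ones. It had 8.86, 156, 3.67 and 9.61 CPM in Polg depressive COX-positive libraries, 1.05, 23.9, 6.90 and 40.7 in Polg depressive COX-negative ones, and 14.04, 1.10, 1.34 and 8.24 in WT. Its groups overlapped as well.

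**Figure D5:**
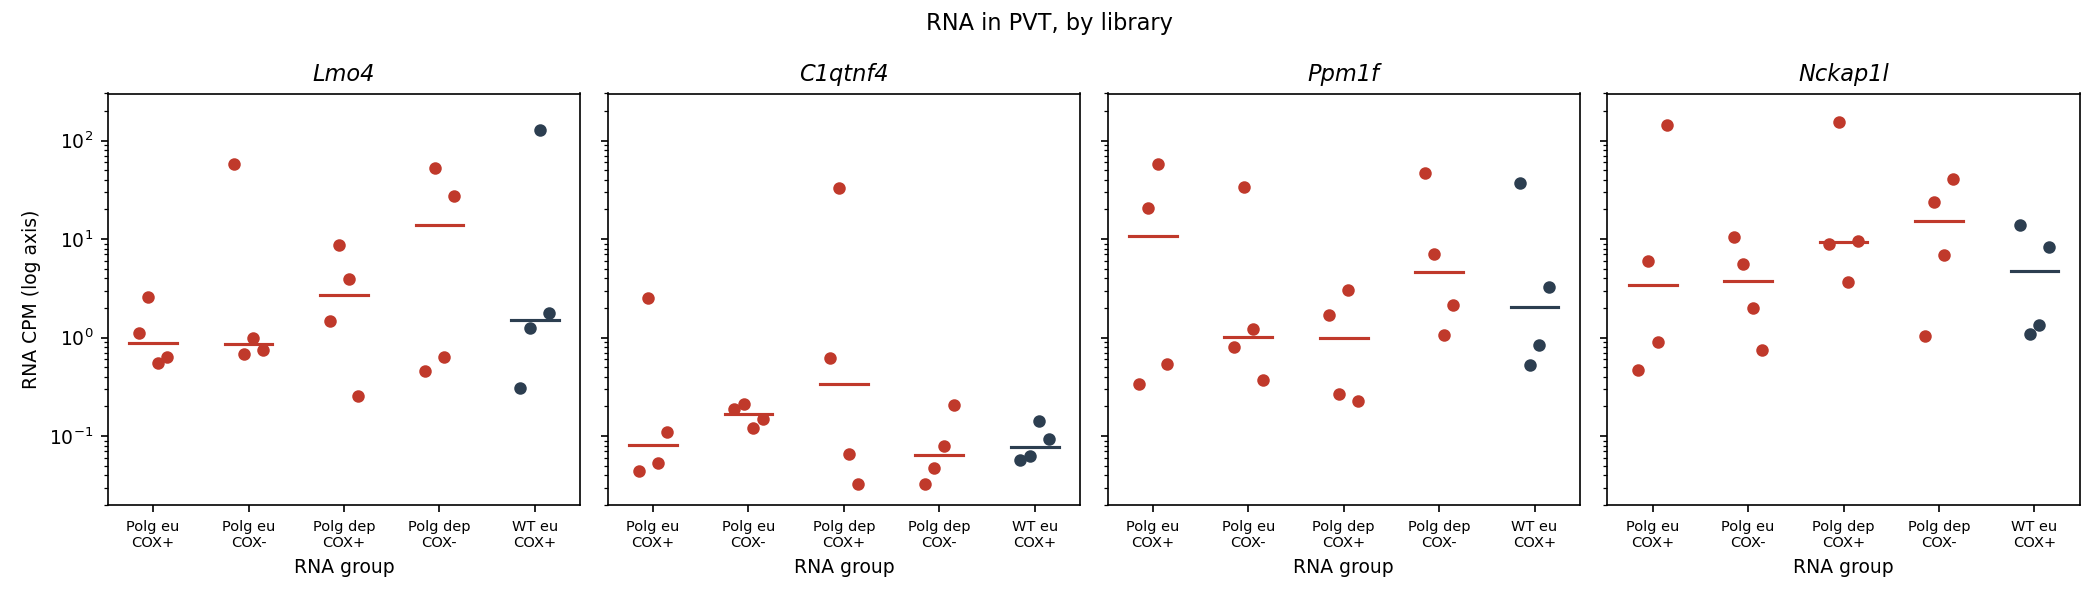
RNA CPM of each gene in PVT (vertical, log axis) in the 4 Polg groups and in WT at the right, with 1 point per library and a bar at the group median (eu, euthymic; dep, depressive). Libraries of 1 group lie far apart, as for Lmo4 in WT (0.309 to 129 CPM), and all groups overlap.

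None of the 4 genes passed in any of 7 RNA contrasts by edgeR's quasi-likelihood test over 28446 genes. In a simulated RNA table (Polg over WT) the same test recovered none of the known changes put in. A lack of calls in RNA therefore does not show a lack of difference. In 6 contrasts 0.0% of genes passed. These were Polg over WT, COX-negative over COX-positive in each state and averaged over both, and depressive over euthymic in each COX class. Between 4357 and 6475 genes had an unadjusted p under 0.05, and DESeq2's Wald test called 1516 to 2939. Depressive over euthymic averaged over both COX classes passed for 1.24% of genes (354), a count that became 0 without any 1 of the 16 mutant libraries. At 0 of the 4 genes did the groups of a contrast fail to overlap. Over all genes that share was 2.66% for Polg over WT, 3.06% and 2.16% for COX-negative over COX-positive in euthymic and in depressive libraries, 1.99% and 2.48% for depressive over euthymic within the COX-positive and the COX-negative class, and 0.0246% (COX class) and 0.00703% (state) over both levels.

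The smallest p among the 4 belonged to C1qtnf4. COX-negative over COX-positive averaged over both states gave a log2 change of -4.23 (SE 1.27, adjusted p 0.0644 by edgeR). Without the Polg depressive COX-positive library at 33.2 CPM it was -1.47, and without a filter on low counts it passed 0.05. Lmo4 had a log2 change of -4.75 in Polg over WT (SE 2.03, adjusted p 0.277 by edgeR). That value turned to 0.14 without the WT library at 129 CPM, and passed 0.05 under DESeq2. In depressive libraries alone, C1qtnf4 had a log2 change of -6.45 for COX-negative over COX-positive (SE 1.98, adjusted p 0.132 by edgeR), and -0.93 without the library at 33.2 CPM.

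Relatives of the 4 genes, in lists chosen with earlier results of these data known, gave a mixed picture of H3K27ac between regions. Lmo3, the LIM-only gene most like Lmo4 in pattern, had 2.17 kb in PVT, against 23.84 kb in COR, 33.79 kb in CP and 34.79 kb in NAC. Lmo1, another LIM-only gene, had 4.85 kb in PVT, against 3.97, 1.0 and 0.22 kb in COR, CP and NAC, and Lmo2 had 4.55 kb in PVT, against 2.77, 1.38 and 5.82 kb. A wider LIM list held 14 genes. It joined LIM-only genes and their cofactors with Lhx2, Lhx9 and Isl1, which encode LIM proteins that bind DNA through a homeodomain. Of the 14, 8 had a mean of at least 5 kb outside PVT. With Lmo4 itself left out, since its ratio chose it, the other 7 had a median ratio of 1.273, against 1.007 over all genes, and PVT was lowest at 2 of 7, against 1018 of 3776 over all genes. Ldb1, the cofactor that joins LIM-only proteins to DNA-binding partners, had 5.41 kb in PVT, against 5.14, 1.39 and 5.83 kb in COR, CP and NAC.

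Of the 20 other PPM phosphatases and kinases beside Ppm1f, 12 reached that mean, with a median ratio of 1.35 and PVT lowest at 3. Ppm1e, the phosphatase closest to Ppm1f, had 23.97 kb in PVT, against 21.6, 4.61 and 4.23 kb in COR, CP and NAC, with PVT highest. Camk4, a nuclear calmodulin-dependent kinase, had 16.2 kb in PVT, against 42.25, 40.55 and 60.44 kb. Among the 18 C1q-related genes, C1qtnf4 was the 1 gene that reached the mean. Of the 17 other genes of the WAVE complex and Rac beside Nckap1l, 10 did, with a median ratio of 0.793 and PVT lowest at 2. Nckap1 had 4.78 kb in PVT, against 9.17, 6.57 and 10.32 kb in COR, CP and NAC. Dock2, an activator of Rac in blood cells, had 57.9 kb in PVT, against 3.21, 6.75 and 32.61 kb.

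Marker genes of cell types were read in the same way. Markers of PVT and midline thalamus had a median of 23.44 kb in PVT, against 0.92 kb in COR, 0.72 kb in CP and 1.18 kb in NAC. Striatal neuron markers had 2.79 kb in PVT, against 6.44, 10.3 and 12.83 kb, and cortical neuron markers 0.6 kb in PVT, against 12.55, 1.95 and 0.78 kb. The labelled regions thus carried acetylation at their own markers. Microglia and blood cell markers, the cells in which Nckap1l is best known, had a median of 0.37 kb in PVT, against 1.58 kb in COR, 0.25 kb in CP and 0.35 kb in NAC. At least 1 peak lay at 9 of 16 of these markers in PVT, 13 in COR, 9 in CP and 10 in NAC, and in PVT there was none at Tmem119, Aif1, Itgam, C1qa, C1qb or C1qc. Their part in the Nckap1l values was not tested.

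Each gene was also set beside those nearest to it in H3K27ac over the 16 libraries, by Euclidean distance in log2(CPM + 1). The windows of these genes also reach 5 kb past each gene. Peaks of their neighbours were not set apart, so the values may not be the genes' own. The pattern of Lmo4 was most like Tmprss4 (distance 2.35), Stard3 (2.57) and Pde1c (2.59). Tmprss4 had 14.6 CPM in PVT, against 88.3 in COR, 362 in CP and 204 in NAC. Ppm1f was nearest to Ccdc149 (1.48), Inf2 (1.57) and Esrrg (2.20). Inf2, a formin that builds actin filaments, had 16.3 CPM in PVT, against 144, 221 and 155 in COR, CP and NAC. C1qtnf4 was nearest to Wdfy3 (1.31), Plxnc1 (1.56) and Lrtm2 (1.58), each with its highest mean in PVT. Nckap1l was nearest to Hacd2 (1.37), Cdc14a (1.84) and Frmd4b (2.92), each lowest in COR.

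For Polg over WT in PVT H3K27ac, median log2 changes were taken with each member kept in its own list. The median was 0.00 over 13 tested genes of the LIM list and 0.32 over 15 C1q-related genes. It was -0.19 over 21 phosphatases and kinases and 0.11 over 18 WAVE and Rac genes, against 0.01 over all genes tested. No listed gene passed an H3K27ac test. Of the listed genes, 3 passed a test in another contrast. Camk2a, a calmodulin-dependent kinase among the targets of Ppm1f, had 222 and 239 ATAC CPM in Polg, against 112 and 79.1 in WT. Accessibility at Camk2a rose by 1.26 on the log2 scale (SE 0.17, adjusted p 0.000132 by edgeR), with both Polg libraries above both WT libraries. Reads from the Camk2a promoter of the transgene and from the gene itself cannot be told apart in these counts. Gm40363, a predicted gene outside the lists, had 570 and 607 CPM in Polg, against 862 and 834 in WT, and fell by 0.53 (SE 0.09, adjusted p 0.00686 by edgeR). No gene was called lower, so Gm40363 was lost, under DESeq2's Wald test, with the replicate block, with no window extension and without WT replicate 1. S100b, an astrocyte gene, and Olig2, an oligodendrocyte gene, rose in RNA in depressive over euthymic libraries averaged over both COX classes, by log2 5.24 (SE 1.35, adjusted p 0.0491 by edgeR) and 6.68 (SE 1.69, adjusted p 0.0485 by edgeR), and both belong to the calls lost without any 1 library. They were the 1 call in each of their lists. The median log2 change was -0.08 over the 8 astrocyte markers, 3 of them positive, and -0.85 over the 9 oligodendrocyte markers tested, 4 of them positive, against -0.06 over all genes.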

How the data were processed

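Tables were used as the authors deposited them, as raw counts per gene (RNA) or per peak of 1 merged set per table (chromatin). Per the submitters' processing notes the build was mm10, and the tools, listed without role or version, were featureCounts, Subread, STAR, DESeq2 and HOMER. How peaks were thresholded, whether duplicates were removed and whether strand was used is not given in the sources used here. RNA columns carry a group and no replicate number, per the file headers. Totals ran from 26719334 to 115285349 counts per RNA library, 2932270 to 8040451 for ATAC, and 52759552 to 146450422 (PVT), 52566179 to 197650530 (COR), 12048787 to 101443484 (CP) and 6415127 to 80516545 (NAC) for H3K27ac. Reads carried no molecular identifiers.

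Peaks overlapping a gene span plus 5 kb by at least 1 bp were summed per protein-coding gene (RefSeq, GRCm38.p6), and lengths were trimmed to that window. Each table was tested with the edgeR 4.0.16 quasi-likelihood test (R 4.3.3; TMM, edgeR's filter on low counts, robust, 2-sided, Benjamini-Hochberg, 0.05), Polg over WT; all 20 RNA libraries shared 1 model, as independent samples. The test was run on simulated data with known changes. It recovered none of them in simulated tables of COR, CP, NAC and RNA (Polg over WT), so a lack of calls there does not show a lack of difference. Alternatives were DESeq2 1.42.0 (size factors, Wald test), no filter, each library left out, a replicate block and other windows.

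The members and lists were chosen with earlier results of these data known. Named genes were the 4 members, their neighbours and closest relatives, the 3 genes of most similar H3K27ac, and up to 4 list genes per contrast that passed; other relatives (Ldb1, Camk4, Dock2) were chosen after their values were seen. The 4 input libraries, which mixed genotypes, were not used.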

Additional observations from a re-analysis of the deposited data

Results flagged for a closer look

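Within groups of 4 RNA libraries, the highest library of 9 of 20 gene and group combinations lay far from the others by Dixon's criterion. Its chance rate of about 1 in 20 groups holds for independent, normally distributed values. These CPM are strongly skewed and the 4 genes share their libraries, so that rate is no measure for the 9. Lmo4 reached 57.7 CPM in 1 Polg euthymic COX-negative library and 129 CPM in 1 WT library. C1qtnf4 reached 2.50 CPM in 1 Polg euthymic COX-positive library and 33.2 CPM in 1 Polg depressive COX-positive library. Ppm1f reached 33.3 CPM in 1 Polg euthymic COX-negative library, 46.9 CPM in 1 Polg depressive COX-negative library and 37.5 CPM in 1 WT library. Nckap1l reached 145 CPM in 1 Polg euthymic COX-positive library and 156 CPM in 1 Polg depressive COX-positive library. In each of these cases the high value was a single library, and the cause was not tested.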

How the results depend on the processing

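No member passed a chromatin test under any alternative. Of 571 member values over 48 results under the alternatives, 531 kept direction and side of the threshold, 37 changed sign and 3 newly passed, all in RNA. Those 3 were Lmo4 in Polg over WT (-4.86) and in COX-negative over COX-positive of both states (3.11) under DESeq2, and C1qtnf4 in COX-negative over COX-positive of both states without a filter (-4.37). When each library was left out in turn, direction held throughout for 4 of 4 member results in ATAC, 6 of 16 in H3K27ac and 12 of 28 in RNA; the others turned in at least 1 fit, and the cause was not tested. In H3K27ac of PVT, leaving out 1 library gave -0.0688 to 0.31 for Nckap1l, -0.17 to 0.21 for C1qtnf4, -0.90 to 0.14 for Lmo4. In H3K27ac of COR, leaving out 1 library gave -0.18 to 0.91 for Nckap1l, -0.28 to 0.20 for Ppm1f, -0.29 to 0.69 for C1qtnf4. In H3K27ac of CP, leaving out 1 library gave -0.47 to 1.30 for Nckap1l, -0.23 to 0.42 for Ppm1f. In H3K27ac of NAC, leaving out 1 library gave -0.38 to 0.35 for Nckap1l, -0.65 to 0.11 for Ppm1f. In RNA of Polg over WT, leaving out 1 library gave -5.11 to 0.14 for Lmo4, -1.34 to 4.37 for Nckap1l, -0.56 to 4.32 for Ppm1f. In RNA of COX-negative over COX-positive in euthymic libraries, leaving out 1 library gave -2.39 to 1.17 for C1qtnf4, -0.60 to 4.06 for Lmo4, -3.78 to 0.93 for Nckap1l, -4.68 to 0.31 for Ppm1f. In RNA of COX-negative over COX-positive in depressive libraries, leaving out 1 library gave -2.32 to 1.51 for Nckap1l. In RNA of depressive over euthymic, COX-positive, leaving out 1 library gave -1.75 to 7.40 for C1qtnf4, -2.47 to 4.19 for Nckap1l. In RNA of depressive over euthymic, COX-negative, leaving out 1 library gave -0.66 to 4.66 for Lmo4, -1.37 to 4.44 for Ppm1f. In RNA of COX-negative over COX-positive, both states, leaving out 1 library gave -0.54 to 1.90 for Ppm1f. In RNA of depressive over euthymic, both COX classes, leaving out 1 library gave -1.21 to 3.34 for C1qtnf4, -0.15 to 3.08 for Nckap1l, -2.65 to 0.30 for Ppm1f. A window of 10 kb turned Nckap1l to -0.031 in COR and -0.0145 in NAC, and no extension turned Ppm1f to -0.0164 in CP.

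Counts over all genes moved more. DESeq2's Wald test called 279 genes in PVT, 499 in COR, 326 in CP and 836 in NAC for H3K27ac, 1 for ATAC, and for RNA 1516 (Polg over WT), 2551 and 2460 (COX-negative over COX-positive, euthymic and depressive), 2224 and 2939 (depressive over euthymic, COX-positive and COX-negative), 2620 (COX class, both states) and 2507 (state, both classes). Without a filter on low counts the calls were 4 in CP, and in RNA 2 (Polg over WT), 458, 586, 1170, 1628 and 1887 in the order of the same contrasts, except that depressive over euthymic in COX-positive libraries stayed at 0. DESeq2 size factors gave 377 RNA calls for COX class and 780 for state over both levels, and moved the median log2 change over all genes by more than 0.1 in 5 of 7 RNA contrasts, most in Polg over WT (0.19, against -0.02 under TMM), and by less in the chromatin tables. Leaving out 1 library gave 0 to 9 calls in PVT, 0 to 1028 in CP, 0 to 1453 in NAC, 1 to 19 in ATAC and 0 in RNA; the 1028 and 1453 came without WT replicate 1, which leaves the WT library with most peaks at 0 alone, assumed to vary like the others. With the replicate number as a block, CP gave 3 calls and ATAC 1, and the other tables kept 0. Same-numbered libraries did not deviate together over genes (r from -0.068 to 0.04). With so few libraries per table, that cannot show whether the numbers pair libraries. For RNA, no paired analysis was possible because its columns carry no replicate numbers. With no extension ATAC gave 1 call.

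The PVT ratio to the other regions was 0.152, 0.11 and 0.051 for Lmo4 with no extension, 10 kb and CPM in place of length. In the same order it was 0.222, 0.228 and 0.099 for Ppm1f, 0.806, 1.106 and 1.404 for C1qtnf4, and 0.773, 0.726 and 0.437 for Nckap1l. The C1qtnf4 value of 1.404 includes the 138 CPM of the whole peak from the Mtch2 side. Within the gene span alone, C1qtnf4 averaged 97.3 CPM in PVT, against 65.7 in COR, 173 in CP and 202 in NAC. There every PVT library lay below every CP library. The NAC value includes all 81.4 CPM of an 8.09 kb peak that reaches 0.3 kb into the gene. The NAC peak mainly inside the gene held 94.4 and 86.9 CPM in Polg and 124 and 177 in WT. These libraries overlapped those of PVT in the gene span, at 133 and 83.1 CPM in Polg and 96.1 and 77.2 in WT. With the spread of these libraries, the edgeR test recovered none of the changes put into simulated H3K27ac tables of COR, CP and NAC and a simulated RNA table (Polg over WT), so a lack of calls there does not show a lack of difference; small changes were also missed in simulated PVT tables.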
